A study of Mus musculus with 32 samples.

Results

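Messenger RNA of 10 autophagy genes was measured in the spinal cord of mice that carry a mutant human SOD1 gene and of their wildtype littermates. The genes were listed by name, with no threshold on their values but with earlier results of these data known, and are 10 of the 42524 genes in the count table: Sqstm1, which encodes the cargo receptor p62, Map1lc3a and Map1lc3b (LC3A and LC3B), Gabarap, Gabarapl1, Becn1, Tfeb, Ulk1, Atg5 and Atg7. The 32 mice formed 8 groups of 4. WT (C57BL/6J) or G93A mice (the B6-Tg(SOD1-G93A)1Gur/J transgenic line, bred on the same background) were left untreated or given OKN007, and were sampled at times labelled 90 and 155 days. The methods of the study give a slightly later age for the early time and state that OKN007 was given in drinking water. Treatment began before symptoms in some cohorts and at onset in another, which was taken only at the later age. The experimental mice are described as predominantly female. The dose and cohort of the sequenced mice are not given in the sources used here. Of the cohorts described, only those at the higher dose were taken at the later age and near the early one. For that dose the methods name only female mice. Each library came from a 25 mg piece of spinal cord, and no source used here states the level of the cord. The transgene is driven by the human SOD1 promoter and is expressed throughout the body, and it has no row in the mouse table, so the genotype labels could not be checked on it. The comparisons ask whether the autophagy genes differ in G93A cord early and late in disease, and whether they differ with OKN007.

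Macroautophagy encloses cytoplasm in a double membrane and delivers it to the lysosome. The kinase ULK1 starts the process, BECN1 belongs to the lipid kinase complex that marks the forming membrane, and ATG7 and ATG5 act in the conjugation systems that attach Atg8 proteins (the LC3 and GABARAP families) to it. Cargo receptors such as p62 bind ubiquitinated material and Atg8 proteins together, and TFEB is a transcription factor for lysosomal and autophagy genes. p62 protein is itself degraded by autophagy and accumulates in inclusions in ALS tissue. The present data are RNA levels only, and neither p62 protein nor autophagic flux was measured.

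At 155 days, Gabarap and Tfeb were higher and Ulk1 and Gabarapl1 were lower in untreated G93A than in untreated WT cord. The 2 GABARAP genes therefore changed in opposite directions. Since they are relatives, the start of their coding sequences is given here, as their likeness bears on whether reads of one can be taken for the other. Bases that differ between them are in capitals in the first 90 coding bases, read from the GENCODE M21 transcripts (GRCm38).
Gabarap: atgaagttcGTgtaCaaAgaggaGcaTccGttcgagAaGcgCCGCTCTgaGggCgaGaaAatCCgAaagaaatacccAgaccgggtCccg
Gabarapl1: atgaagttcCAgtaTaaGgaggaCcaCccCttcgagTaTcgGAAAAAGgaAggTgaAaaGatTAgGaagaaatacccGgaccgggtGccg

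These stretches differ at 25 of 90 bases. Over the whole coding sequence of 354 bases the genes were 74.9% identical, and the longest run of identical bases was 17. The coding sequence is only a part of the exons, which hold 1844 bases in Gabarap and 2013 in Gabarapl1. Whether reads of one gene were counted for the other was not tested. Gabarap lies at chr11:69991143-69994951 on the plus strand and Gabarapl1 at chr6:129533160-129542346 on the plus strand (GRCm38). Map1lc3a and Map1lc3b, the LC3 genes, were 74.1% identical, with a longest shared run of 15 bases. Map1lc3b has 4 processed copies elsewhere in the genome (Gm6055, Gm6054, Gm12727 and Gm5612) that match its transcripts at 95% or more over at least 200 bases, the nearest of them Gm6055 at 99.735% over 378 bases, so its count is less certain than those of Gabarap and Map1lc3a, for which no such copy was found. Transcripts of Sqstm1, Becn1, Gabarapl1 and Map1lc3b overlap an antisense neighbour (Mrnip, Cntd1, 1700101I11Rik and Zcchc14) in part of their exons. The libraries were stranded but the strand setting of the counting is not given in the sources used here. The neighbours averaged 7.55, 1.07, 0.777 and 42.7 CPM over the 32 mice and none of them was called in the untreated comparison at 155 days.

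Library totals ran from 19701722 to 30138257 gene counts (median 26658755). CPM is the count scaled to the TMM-adjusted library total. A count of 3 would be at most 0.152 CPM in any library, a limit for counting error only, and the lowest value of any of the 10 genes in any mouse was 11.7 CPM, so each passed the filter on low counts in every fit. The mice were distinct animals by their labels and no 2 libraries of a group agreed within counting noise. At 90 days 2 untreated libraries stood apart in Schwann cell markers, WT replicate 3 with a sum of 1125 CPM against 2.74 to 3.56 CPM in its group and G93A replicate 10 with 213 CPM against 3.73 to 4.77 CPM. Groups were compared by edgeR's quasi-likelihood test over all genes, two-sided, with Benjamini-Hochberg adjustment over all genes tested, and a gene was called at an adjusted p under 0.05.

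Compared per base of transcript in untreated WT cord at 155 days, Gabarapl1 was the most abundant of the 10 at 272 ± 22.1 RPKM (CPM per kilobase of exon, mean ± SD, n = 4). Sqstm1 (149 ± 8.47), Map1lc3a (103 ± 36.4), Gabarap (38.4 ± 9.92), Map1lc3b (34.0 ± 1.99), Becn1 (17.5 ± 0.671), Atg5 (12.8 ± 0.791), Ulk1 (8.34 ± 0.322), Tfeb (3.97 ± 0.599) and Atg7 (2.36 ± 0.178 RPKM) followed in that order. The individual mice of neighbours in this order overlapped for Sqstm1 with Map1lc3a and for Gabarap with Map1lc3b, and not for the other pairs. The exon lengths behind these levels are of GENCODE M21, which is not the annotation of the counting.

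**Figure D1:**
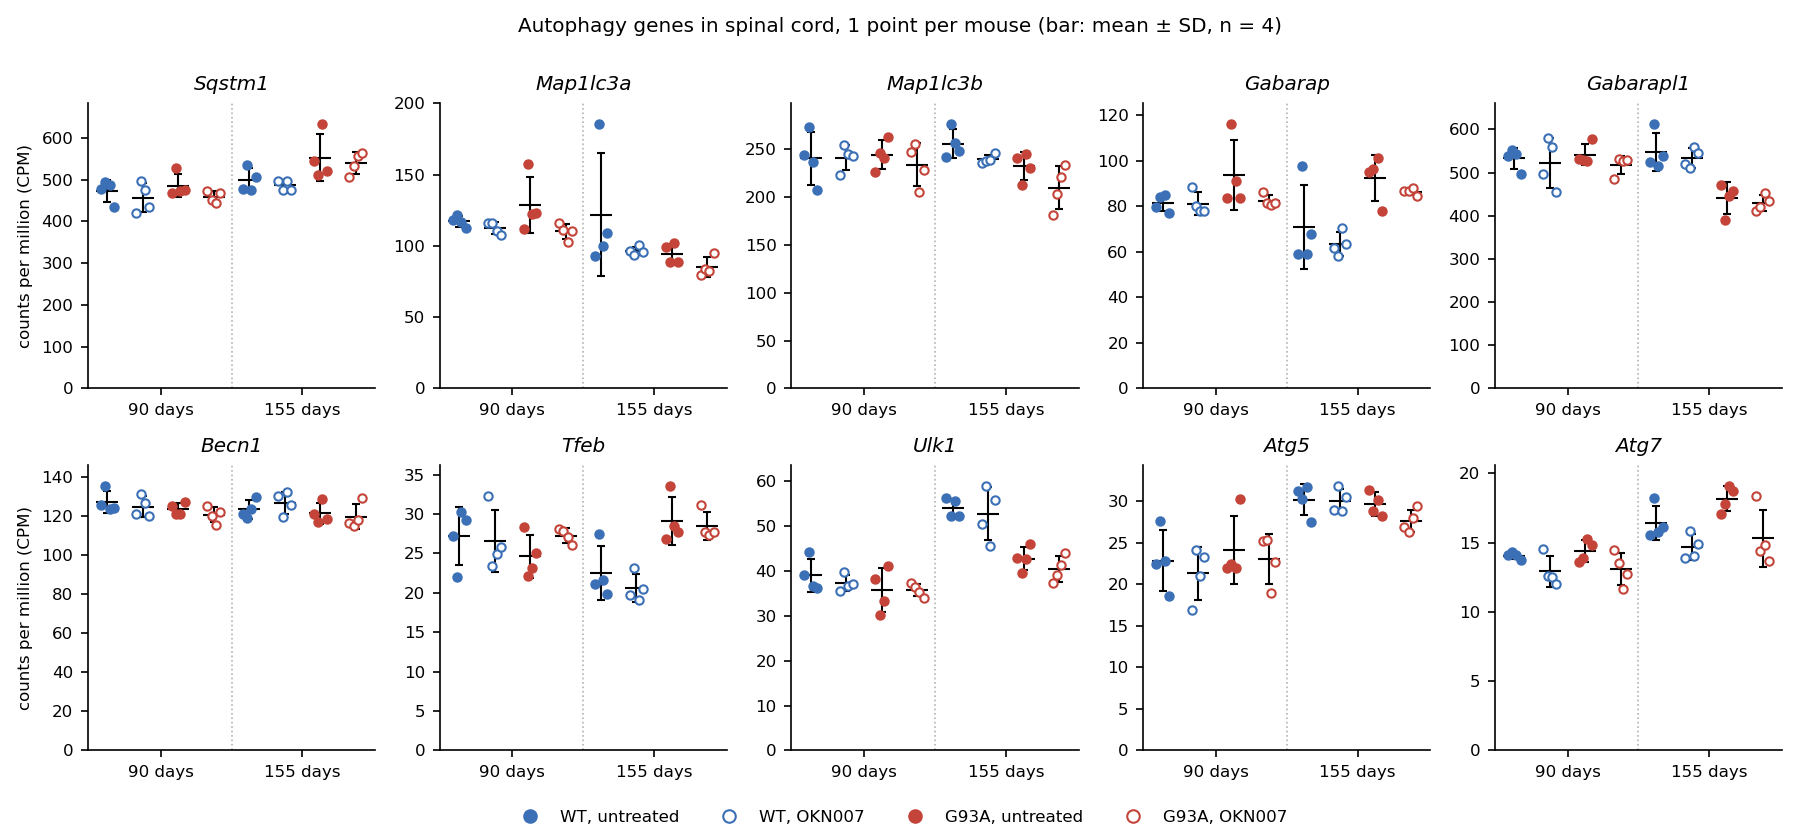
CPM (y axis, from 0, a separate scale for each gene) of the 10 genes in each of the 32 mice, by genotype (blue WT, red G93A), treatment (filled untreated, open OKN007) and labelled age (x axis), with the mean ± SD of 4 mice. At 155 days the G93A mice lie above the WT mice for Gabarap and Tfeb except for 1 WT mouse, and below every WT mouse of the same treatment for Ulk1 and Gabarapl1.

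Ulk1, the initiating kinase, was measured at 56.2, 52.2, 55.5 and 52.3 CPM in the untreated WT mice at 155 days and at 42.9, 39.5, 42.6 and 46.0 CPM in the untreated G93A mice. Every G93A mouse was below every WT mouse. The log2 fold change of Ulk1 was -0.32 (SE 0.0805, 95% interval -0.49 to -0.16, edgeR adjusted p = 0.00343), a level of 0.799 times WT. With Ulk1, 4 of the 10 genes were called in this comparison, 2 of them higher and 2 lower, against 39.5% of the 18675 genes tested. Their share is that of the whole table. The median log2 fold change of the 10 genes was -0.0096, beside 0.00015 over all genes tested.

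Becn1, at chr11:101285952-101302286 on the minus strand, was 121, 119, 124 and 130 CPM in untreated WT and 121, 117, 129 and 119 CPM in untreated G93A mice at 155 days. The groups overlapped throughout, with a log2 fold change of -0.0089 and a 95% interval from -0.13 to 0.12. Atg5, the partner of ATG12, was measured at 31.2, 30.3, 31.7 and 27.5 CPM in untreated WT and at 31.4, 28.8, 30.2 and 28.2 CPM in untreated G93A mice. Its log2 fold change was -0.010, with an interval from -0.16 to 0.13. Neither gene passed the test (edgeR adjusted p of 0.922 for Becn1 and 0.921 for Atg5).

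Atg7, the activating enzyme shared by both conjugation systems, was 15.5, 18.2, 15.8 and 16.1 CPM in untreated WT and 17.1, 17.8, 19.1 and 18.7 CPM in untreated G93A mice. The second of these WT mice reached into the G93A range. Atg7 did not pass the test (log2 fold change 0.16, SE 0.0961, edgeR adjusted p = 0.195).

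Among the Atg8 genes, Gabarap was 59.1, 97.6, 58.9 and 67.6 CPM in untreated WT and 94.9, 96.1, 101 and 77.9 CPM in untreated G93A mice at 155 days. WT replicate 2 stood within the G93A range and the other 3 WT mice were below all G93A mice. The log2 fold change was 0.40 (SE 0.124, 95% interval 0.14 to 0.66, edgeR adjusted p = 0.0148), which is 1.32-fold, and without that WT mouse it was 0.61 (edgeR adjusted p = 4.48e-05). The call did not hold without WT replicate 1 (edgeR adjusted p = 0.0574), without WT replicate 3 (edgeR adjusted p = 0.0616), or when the untreated groups were fitted alone (edgeR adjusted p = 0.0672).

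Gabarapl1 was 523, 613, 515 and 537 CPM in untreated WT and 472, 389, 447 and 458 CPM in untreated G93A mice, without overlap. Its log2 fold change was -0.30 (SE 0.0733, 95% interval -0.45 to -0.14, edgeR adjusted p = 0.00343), a level of 0.815 times WT. Map1lc3a was measured at 92.96, 186, 99.9 and 109 CPM in untreated WT and at 99.3, 88.5, 102 and 88.8 CPM in untreated G93A mice. The value of 186 belongs to the same WT replicate 2, which also had the highest Gabarap, Gabarapl1, Gabarapl2 and Map1lc3b of its group, and the groups overlapped. Map1lc3a did not pass the test (log2 fold change -0.35, SE 0.149, edgeR adjusted p = 0.0713), and without WT replicate 2 its log2 fold change was -0.062. It was called without WT replicate 1 (-0.46, edgeR adjusted p = 0.0219) and without WT replicate 3 (-0.44, edgeR adjusted p = 0.0380), which leaves replicate 2 a larger share of the WT mean. Map1lc3b was 242, 277, 257 and 248 CPM in WT and 241, 213, 245 and 230 CPM in G93A mice, with a log2 fold change of -0.13 (SE 0.0747, edgeR adjusted p = 0.197).

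The ratio of Gabarap to Gabarapl1 moved with these opposite changes. On the RPKM scale the ratio was 0.140 ± 0.0236 in untreated WT mice (0.123 to 0.174) and 0.231 ± 0.0362 in untreated G93A mice (0.186 to 0.270) at 155 days (mean ± SD, n = 4 each). In OKN007 mice it was 0.130 ± 0.00574 in WT and 0.220 ± 0.00905 in G93A. Neither pair of groups overlapped, while at 90 days the untreated WT mice (0.162 to 0.171) lay within the range of the untreated G93A mice (0.158 to 0.239). This ratio was formed after both genes had been seen to change and is given without a test. Of the summed RPKM of 5 Atg8 genes (the 4 above and Gabarapl2), Gabarap took 7.81% ± 0.733 in untreated WT and 12.2% ± 1.47 in untreated G93A mice at 155 days. Gabarapl1 remained the largest part in each group, at 53.1% to 59.1% of the sum. The sum itself was 486 ± 76.5 RPKM in untreated WT and 413 ± 26.5 RPKM in untreated G93A mice. WT replicate 2 was at 599 RPKM and the other WT mice at 439 to 466 RPKM. Like Map1lc3b, Gabarapl2 has near copies, so its count is less certain too. These are Gm3724 (99.427% over 349 bases), Gm6051 (98.011% over 352) and Gm5829 (96.581% over 351).

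**Figure D2:**
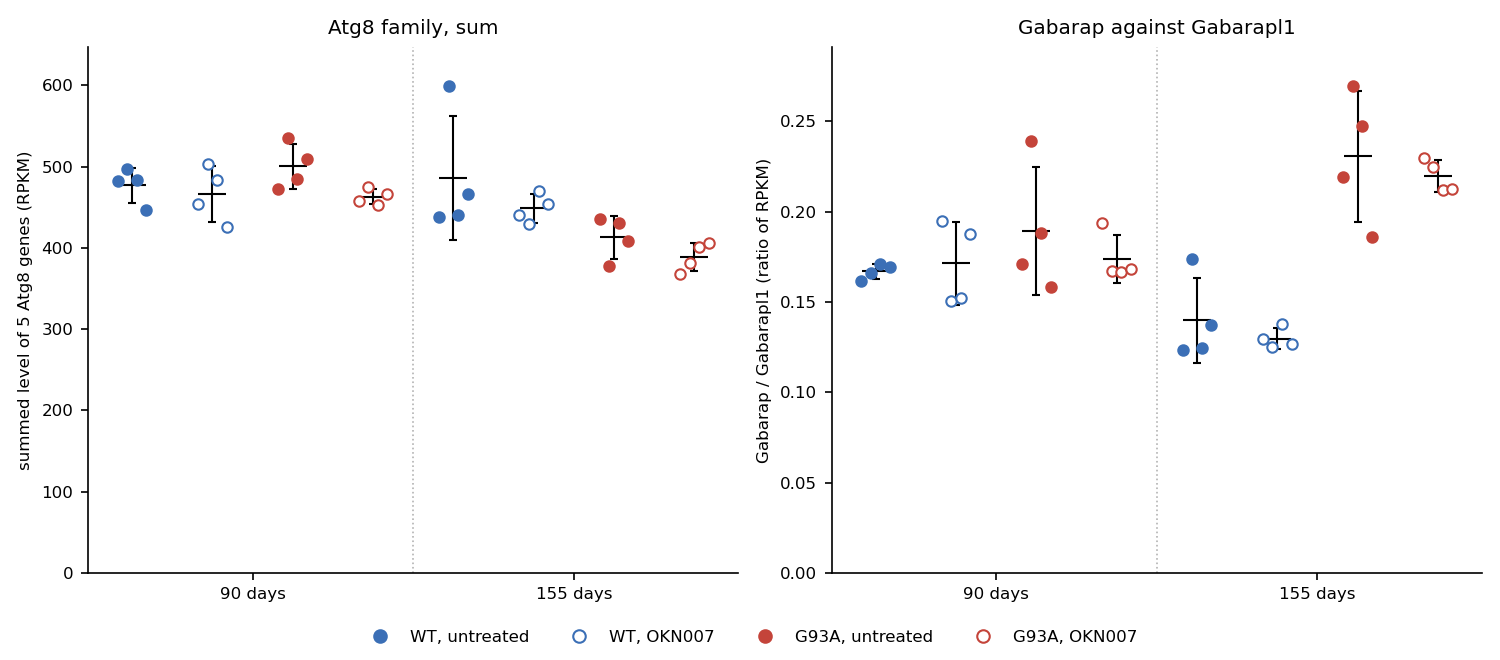
Left, the summed RPKM of 5 Atg8 genes, and right, the ratio of Gabarap to Gabarapl1 RPKM (y axes, from 0), in each mouse of the 8 groups (x axis, labelled age; blue WT, red G93A, filled untreated, open OKN007) with the mean ± SD of 4 mice. The ratio is 0.186 or more in all 8 G93A mice at 155 days and 0.174 or less in all 8 WT mice of that age.

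Sqstm1, at chr11:50199366-50210827 on the minus strand, was 478, 536, 474 and 506 CPM in untreated WT and 546, 512, 634 and 521 CPM in untreated G93A mice at 155 days. WT replicate 2 was higher than 2 of the G93A mice. The log2 fold change was 0.16 (SE 0.0706, 95% interval 0.016 to 0.31), and the gene was not called (edgeR adjusted p = 0.0732). It was called without WT replicate 2 (0.21, edgeR adjusted p = 0.0273) and without G93A replicate 10 (0.21, edgeR adjusted p = 0.0394). Leaving out any of the other 6 mice left it uncalled, and without G93A replicate 11, the mouse with 634 CPM, the log2 fold change was 0.094. That mouse also had the lowest share of counts on mitochondrial genes of all libraries, at 3.77%. Within groups, Sqstm1 deviated against that share (correlation -0.62), and the part of the share in the Sqstm1 values was not tested.

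Tfeb, at chr17:47737030-47792419 on the plus strand, was 21.1, 27.5, 21.6 and 19.9 CPM in untreated WT and 26.8, 33.6, 28.5 and 27.8 CPM in untreated G93A mice. The groups overlapped only through WT replicate 2. The log2 fold change of Tfeb was 0.39 (SE 0.103, 95% interval 0.17 to 0.60, edgeR adjusted p = 0.00532), which is 1.31-fold.

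The OKN007 mice at 155 days give the genotype comparison a second time, in other animals, though with an estimate of spread shared by both. Tfeb was 19.7, 23.2, 19.1 and 20.5 CPM in OKN007 WT and 31.2, 27.8, 27.4 and 27.8 CPM in OKN007 G93A mice, without overlap (log2 fold change 0.50, SE 0.103, edgeR adjusted p = 0.000614). Gabarap was 61.6, 58.3, 70.6 and 63.4 CPM against 86.5, 86.5, 88.0 and 84.3 CPM, also without overlap (0.48, SE 0.124, edgeR adjusted p = 0.00430). Here both genes were higher in every G93A mouse, without the 1 WT mouse that overlapped in the untreated groups.

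Ulk1 was 50.6, 58.9, 45.7 and 55.9 CPM in OKN007 WT and 37.3, 39.2, 41.3 and 44.1 CPM in OKN007 G93A mice (log2 fold change -0.35, SE 0.0805, edgeR adjusted p = 0.00176). Gabarapl1 was 519, 510, 559 and 546 CPM against 410, 420, 453 and 434 CPM (-0.28, SE 0.0733, edgeR adjusted p = 0.00486). Both were lower in every G93A mouse. Sqstm1 was 496, 476, 498 and 475 CPM against 507, 534, 557 and 564 CPM, without overlap, and was called here (0.19, SE 0.0706, edgeR adjusted p = 0.0394). That call was lost in 12 of 17 alternatives, among them each single omission of a mouse other than G93A replicate 13, where the adjusted p lay between 0.0479 and 0.121 over all 8 omissions.

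In total 5 of the 10 genes were called in the OKN007 mice, against 41.5% of the 18675 genes tested. All 10 had the same sign in both genotype comparisons at 155 days, as had 85.4% of all genes tested. The remaining genes were not called in OKN007 mice, with log2 fold changes of -0.16 for Map1lc3b, -0.14 for Map1lc3a, -0.085 for Atg5, -0.049 for Becn1 and 0.098 for Atg7. Averaged over both treatments, a contrast added after the data had been seen, 6 of the 10 genes were called, against 54.7% of all genes: Sqstm1 (0.18, SE 0.0499, edgeR adjusted p = 0.00574), Gabarap (0.44), Tfeb (0.45), Ulk1 (-0.34), Gabarapl1 (-0.29) and Map1lc3b (-0.14, edgeR adjusted p = 0.0297).

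**Figure D3:**
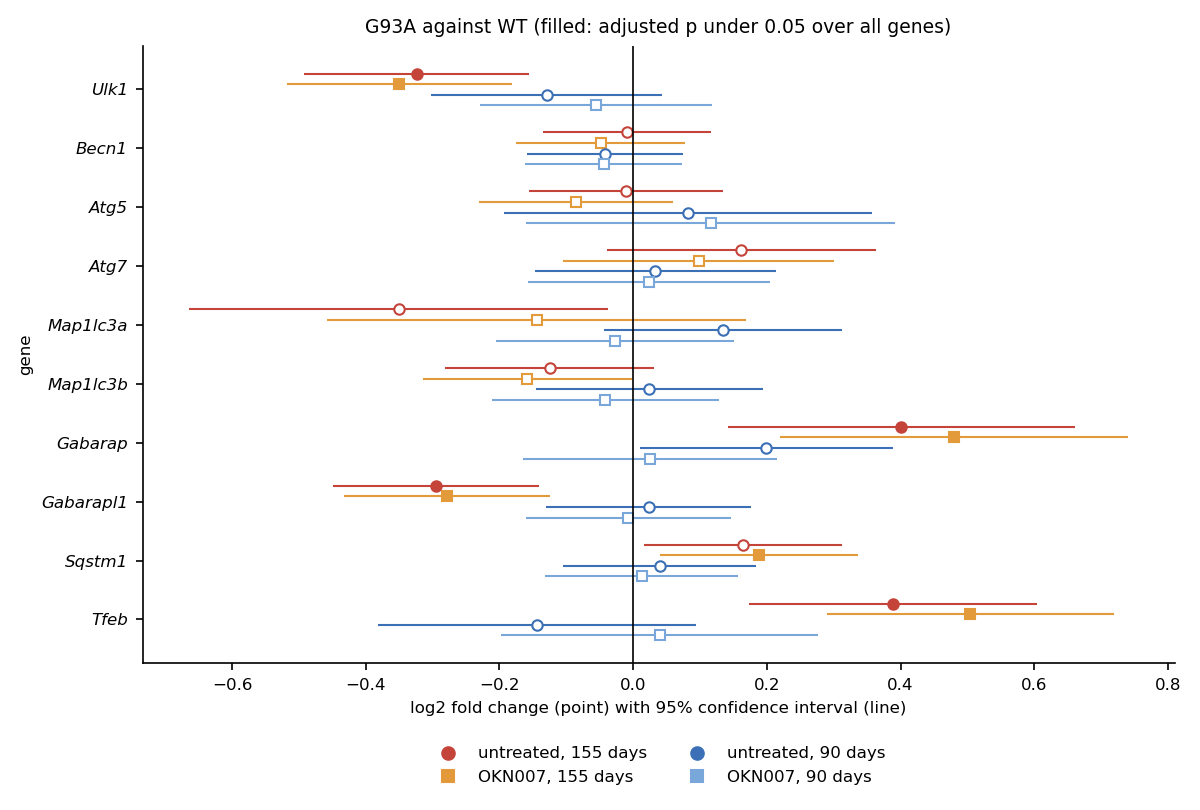
Log2 fold change of G93A against WT (x axis, points, with 95% confidence intervals) for the 10 genes (y axis) in untreated (circles) and OKN007 mice (squares) at 155 days (red, orange) and 90 days (dark and light blue), with filled points for an adjusted p under 0.05. Filled points occur only at 155 days, to the right for Gabarap, Tfeb and, in OKN007 mice, Sqstm1, and to the left for Ulk1 and Gabarapl1.

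These are levels in whole tissue, in which fewer cells of a type cannot be told apart from less RNA per cell. The marker genes of the cells in the cord moved with the genotype at 155 days. The summed level of 9 microglial markers was 294 to 356 CPM in untreated WT and 1189 to 2005 CPM in untreated G93A mice, and 9 of 9 rose. The sum of 8 astrocyte markers was 4711 to 5264 CPM against 14701 to 19938 CPM, with 7 of 8 higher. The sum of 8 general neuronal markers was 12464 to 15410 CPM against 6345 to 8913 CPM, with 8 of 8 lower, and 7 of 8 motor neuron markers were lower (343 to 403 CPM against 223 to 248 CPM). Of 6 oligodendrocyte markers 1 was higher, and no marker of these lists was at 0. Markers of Schwann cells, skeletal muscle and liver were not called in the untreated comparison. The liver sum there was 1.09 to 19.3 CPM in WT and 1.25 to 189 CPM in G93A mice, the 189 CPM in G93A replicate 12. In OKN007 mice 1 Schwann cell marker was called lower and 1 liver marker higher (liver sum 0.612 to 5.53 CPM in WT and 1.05 to 131 CPM in G93A mice). In OKN007 mice the microglial sum was 276 to 324 CPM in WT and 1443 to 1755 CPM in G93A mice, and the neuronal sum 13579 to 14652 CPM against 5240 to 8076 CPM. The part of these cell types in the changes of the 10 genes was not tested.

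Caudal Hox genes, whose expression follows position along the cord, also moved with the groups. A score of 6 of them (mean log2(CPM + 1)) was 2.93 to 4.16 in untreated WT and 0.557 to 3.01 in untreated G93A mice at 155 days, and 3.86 to 4.16 against 1.26 to 2.97 in OKN007 mice. With this score as a covariate in a separate fit, in which 5248 genes of the table were called, the calls of Gabarap, Tfeb, Ulk1 and Gabarapl1 were lost in the untreated comparison, with log2 fold changes of 0.38, 0.30, -0.26 and -0.24 and edgeR adjusted p of 0.0932, 0.0984, 0.0690 and 0.0722. Sqstm1 was then called (0.25, edgeR adjusted p = 0.0404). In OKN007 mice the same covariate left Gabarap (0.46), Sqstm1 (0.28) and Tfeb (0.41) called, and Ulk1 (-0.28) and Gabarapl1 (-0.22) not. The score did not overlap between the genotypes in OKN007 mice, so position and genotype cannot be fully told apart there. A call kept in that fit does not show a change at equal position.

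The wider pathway was described by 9 lists that hold 79 genes, the 10 included, sorted by role. Of 78 that passed the filter, 14 were higher and 16 lower in untreated G93A cord at 155 days, and 13 were higher and 17 lower in OKN007 mice. The share called, 30 of 78 in each, was near that of all genes (39.5% and 41.5%). With the Hox score as a covariate 5248 and 5277 of the 18675 genes tested were called, and of the pathway genes 13 and 15. In untreated mice these were Sqstm1, Vamp8, Snap29, Vps41, Calcoco1, Wdfy3, Atg4a, Rb1cc1, Atg9a, Foxo1, Tfe3, Mtor and Prkaa2, so the other genes called in untreated mice lost their call in that fit. Of the 30 genes called in each comparison, 23 were called in both, each with the same sign, which is 76.7% of each list. Of all genes tested, 85.4% had the same sign in both comparisons. The matching share of all called genes is not given here, so the overlap is not read as particular to the pathway.

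In the initiation complex 0 of 5 genes rose and 2 fell, the share of all genes called (39.5%). Besides Ulk1 this was Rb1cc1 (FIP200, its scaffold) at -0.30 (edgeR adjusted p = 0.0161). Among 10 upstream kinases and regulators, 1 rose and 4 fell, against 39.5% of all genes called in either direction. Prkaa2, a catalytic subunit of AMPK, fell by 0.42 on the log2 scale (edgeR adjusted p = 0.00793) and Deptor, an inhibitor of mTOR, fell by 0.39 (edgeR adjusted p = 0.00338). Mtor itself (-0.29) and Prkaa1, the other AMPK catalytic subunit (-0.22), also fell, and Akt1s1, an inhibitory component of mTORC1, was the one that rose (0.26, edgeR adjusted p = 0.0466). The list thus held activators and inhibitors of autophagy among its lower genes.

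In the lipid kinase complex 1 of 8 genes was called, against 39.5% of all genes. It was the catalytic subunit Pik3c3 (-0.19, edgeR adjusted p = 0.0112). Among 10 genes of membrane supply and expansion, 1 rose and 2 fell, again against 39.5% of all genes called. Atg9a, a scramblase carried on vesicles, was at -0.45 (edgeR adjusted p = 0.00172) and Tmem41b, a scramblase of the endoplasmic reticulum, at -0.26 (edgeR adjusted p = 0.0166), while Wipi1, which binds phosphoinositides on the forming membrane, was at 0.28 (edgeR adjusted p = 0.00953).

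Against 39.5% of all genes called, 1 of 11 conjugation enzymes and proteases rose and 1 fell. Both encode proteases that process Atg8 proteins, Atg4a with a log2 fold change of 0.60 (edgeR adjusted p = 8.45e-05) and Atg4c with -0.28 (edgeR adjusted p = 0.00919). In the Atg8 list of 5, Gabarapl2 (-0.23, edgeR adjusted p = 0.0632) was not called.

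Of 14 cargo receptors and their kinase, 2 rose and 4 fell, where 39.5% of all genes were called. The receptors Calcoco1 (0.24, edgeR adjusted p = 0.00721) and Bnip3l (0.24, edgeR adjusted p = 0.0157) were higher, and Wdfy3, a large adaptor that binds p62 (-0.37, edgeR adjusted p = 0.00831), and the mitophagy receptor Bnip3 (-0.34, edgeR adjusted p = 0.0115) were lower, as were Fundc1, another mitophagy receptor (-0.26), and the kinase Tbk1 (-0.19). Bnip3l and its relative Bnip3 thus changed in opposite directions, as did Gabarap and Gabarapl1.

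Among 10 genes of fusion with the lysosome, 4 rose and 1 fell, against the same 39.5% of all genes called. Vamp8, a SNARE protein that is also abundant in microglia and other immune cells, had the largest change of the 78 genes (1.16, SE 0.163, edgeR adjusted p = 1.65e-05), and Snap29, its partner, was at 0.35 (edgeR adjusted p = 0.000651). Vps41, a subunit of the HOPS tethering complex, was at -0.33 (edgeR adjusted p = 0.0138), and the adaptor Plekhm1 (0.28) and the SNARE Ykt6 (0.21) were the others that rose. Of 5 transcription factors that passed the filter, 4 rose and 0 fell, with Foxo1 at 0.71 (edgeR adjusted p = 0.000360) and Tfe3 at 0.45 (edgeR adjusted p = 7.98e-05) above Tfeb, and Mitf at 0.24 (edgeR adjusted p = 0.0491), while 39.5% of all genes were called in either direction. With the Hox covariate Foxo1 (0.87) and Tfe3 (0.40) stayed called in untreated mice, and Tfeb (edgeR adjusted p = 0.0984) and Mitf (edgeR adjusted p = 0.473) did not. In OKN007 mice the same 4 were called, with log2 fold changes of 0.53, 0.39, 0.50 and 0.46 for Foxo1, Tfe3, Tfeb and Mitf. These calls stayed with the covariate, though the Hox score did not overlap between the genotypes in OKN007 mice. The median log2 fold change of this list was 0.39 in untreated and 0.46 in OKN007 mice, beside 0.00015 and 0.018 over all genes.

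**Figure D4:**
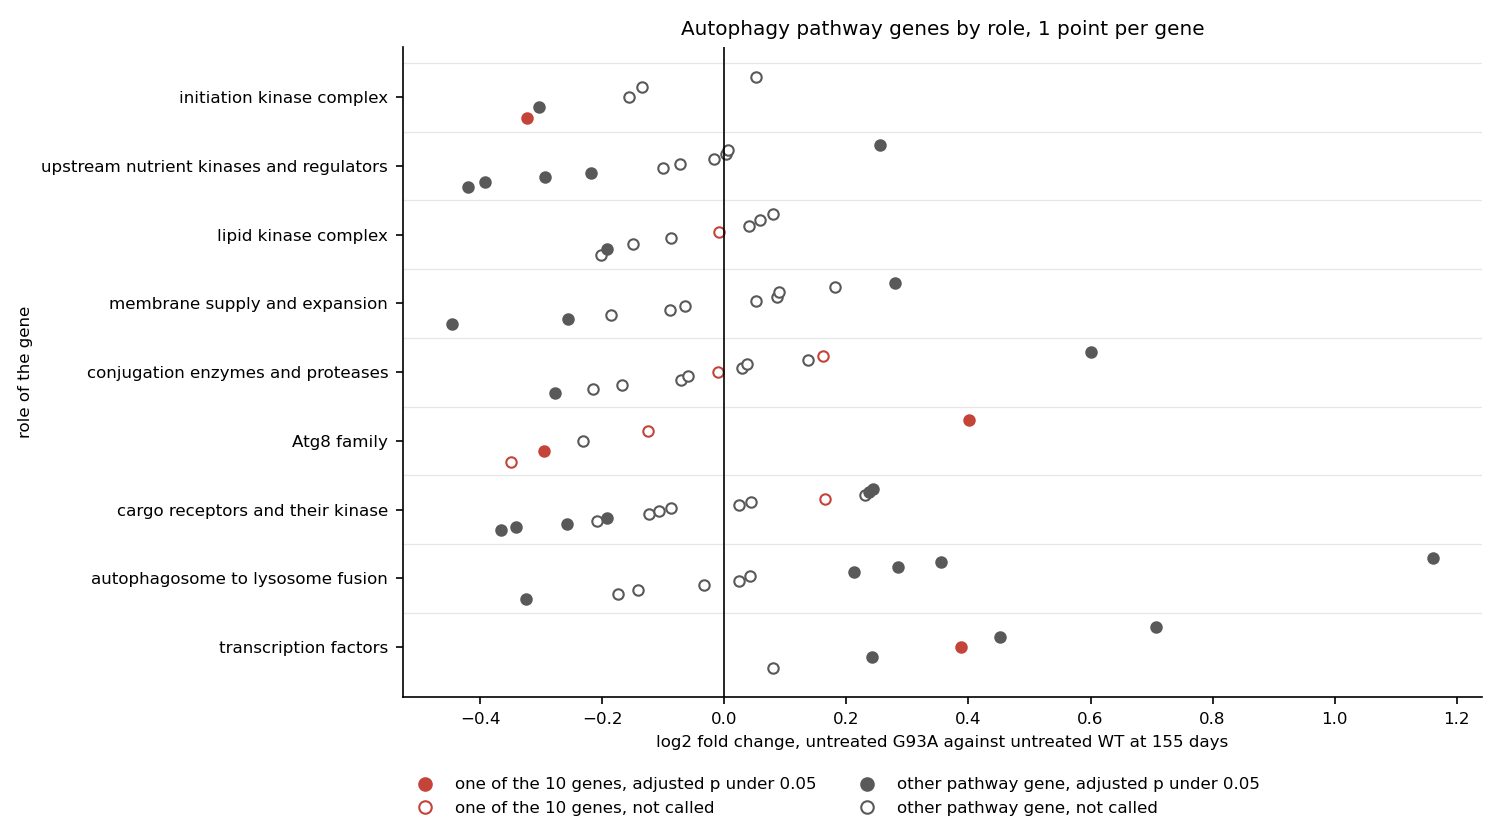
Log2 fold change in untreated G93A against untreated WT cord at 155 days (x axis) of 78 autophagy pathway genes, 1 point per gene, sorted by role (y axis), with the 10 genes in red and filled points for an adjusted p under 0.05. Filled points lie on both sides of 0 in 6 of the 9 roles, only to the left in the initiation and lipid kinase complexes, and only to the right among the transcription factors.

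At 90 days 0 of the 10 genes were called in untreated mice, against 0% of the 18899 genes tested, and 0 in OKN007 mice, again against 0%. At an unadjusted p under 0.05, 1126 genes of the table and 1 of the 10 passed in untreated mice, and 747 genes and 0 of the 10 in OKN007 mice. DESeq2 called 0 of the 10 as well, and 15 genes of the table in untreated and 1 in OKN007 mice. The 1 gene was Gabarap, which was 79.8, 84.0, 85.1 and 77.2 CPM in untreated WT and 83.5, 116, 90.8 and 83.7 CPM in untreated G93A mice (log2 fold change 0.20, SE 0.0904, edgeR adjusted p = 0.822). G93A replicate 10 held the value of 116 and the other 3 G93A mice were near the WT range. Without replicate 10, the library with the Schwann cell markers, the log2 fold change was 0.076. Sqstm1 was 478, 494, 487 and 434 CPM in untreated WT and 469, 528, 472 and 475 CPM in untreated G93A mice, with a log2 fold change of 0.040 and a 95% interval from -0.10 to 0.18. Over the 10 genes the log2 fold changes ran from -0.14 (Tfeb) to 0.20 (Gabarap) in untreated and from -0.055 (Ulk1) to 0.12 (Atg5) in OKN007 mice. Averaged over treatments, 0 of the 10 were called, against 0.0265% of all genes, and the intervals of the 10 ran from -0.22 to 0.29. The microglial sum was 346 to 388 CPM in untreated WT and 346 to 522 CPM in untreated G93A mice at this time.

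The genotype change of untreated mice was compared between the ages in a fit of all 32 mice. It was called different for 3 of the 10 genes, against 21.2% of the 19829 genes tested. The difference (155 days minus 90 days, log2 scale) was 0.52 for Tfeb (SE 0.153, edgeR adjusted p = 0.0153), -0.33 for Gabarapl1 (SE 0.104, edgeR adjusted p = 0.0212) and -0.50 for Map1lc3a (SE 0.182, edgeR adjusted p = 0.0480). The first 2 genes were at -0.14 and 0.023 in the untreated comparison at 90 days, beside 0.39 and -0.30 at 155 days. For Map1lc3a the difference fell to -0.22 (edgeR adjusted p = 0.183) without the WT mouse with 186 CPM. It was called in 12 of 24 alternatives, and was lost as well without WT replicates 1, 3 or 4 or G93A replicates 10, 11 or 12 at 90 days and without G93A replicates 10, 11 or 12 at 155 days. The call of Tfeb was lost without G93A replicate 10 at 155 days (0.44, edgeR adjusted p = 0.0576), and that of Gabarapl1 without WT replicate 4 (-0.28, edgeR adjusted p = 0.0718) or G93A replicate 12 at 90 days (-0.30, edgeR adjusted p = 0.0559) or WT replicate 2 at 155 days (-0.27, edgeR adjusted p = 0.0590). With the Hox score as a covariate none of the 3 was called (edgeR adjusted p of 0.0548, 0.0632 and 0.0897 for Tfeb, Gabarapl1 and Map1lc3a). The difference was not called for Ulk1 (-0.21), Gabarap (0.19) or Sqstm1 (0.11), though without WT replicate 2 at 155 days it was called for Gabarap (0.38, edgeR adjusted p = 0.0303).

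The WT mice also differed by age. Between the labelled ages, untreated WT mice differed in 2 of the 10 genes, against 24.9% of the 19829 genes tested. Ulk1 was 39.2, 44.2, 36.7 and 36.1 CPM at 90 days and 52.2 to 56.2 CPM at 155 days, without overlap (log2 fold change 0.47, SE 0.0850, edgeR adjusted p = 0.000442). Atg5 was 22.4, 27.6, 22.8 and 18.6 CPM at 90 days and 27.5 to 31.7 CPM at 155 days (0.40, SE 0.112, edgeR adjusted p = 0.00950), and was not called without WT replicate 4 of the early time (0.27, edgeR adjusted p = 0.0961). Atg7, whose groups did not overlap (0.22, edgeR adjusted p = 0.0573), and Tfeb (-0.28, edgeR adjusted p = 0.0604) were not called. Ulk1 in the untreated G93A mice at 155 days, at 39.5 to 46.0 CPM, overlapped the range of untreated WT mice at 90 days. The ages were separate sets of mice, so age and cohort cannot be told apart, and the summed oligodendrocyte markers of untreated WT mice were 32486 to 39294 CPM at 90 days and 21195 to 23206 CPM at 155 days. The share of reads on mitochondrial genes was 6.13% to 8.24% at 90 days and 4.16% to 5.33% at 155 days, without overlap. Without WT replicate 3 at 90 days, the library with the Schwann cell markers, Ulk1 was at 0.44 and Atg5 at 0.40, both called. The Hox score of these mice was 1.30 to 3.58 at 90 days and 2.93 to 4.16 at 155 days. The part of these shifts in the 2 calls was not tested for the oligodendrocyte markers and the mitochondrial share, and with the Hox score as a covariate Ulk1 (0.47) and Atg5 (0.45) stayed called and Atg7 was called as well (0.24, edgeR adjusted p = 0.0438).

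OKN007 was compared with no treatment in each genotype at each age, and 0 of the 10 genes were called in any of the 4 comparisons, against 0% of the genes tested in each. At an unadjusted p under 0.05 the table held 755 genes in G93A and 549 in WT mice at 155 days, and 1050 in G93A and 769 in WT mice at 90 days. DESeq2 called 0 of the 10 in each comparison too, with 3 genes called in all in WT mice at 155 days and 0 in the others. Of the 10 genes, Atg7 in G93A mice and Map1lc3a in WT mice passed that unadjusted limit at 155 days, and Map1lc3a in G93A mice at 90 days.

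Atg7 in G93A mice at 155 days was 17.1, 17.8, 19.1 and 18.7 CPM untreated and 18.4, 14.4, 14.8 and 13.7 CPM with OKN007. All but 1 of the treated mice were below the untreated mice (log2 fold change -0.24, SE 0.0961, 95% interval -0.44 to -0.035, edgeR adjusted p = 0.9996). In WT mice of that age its log2 fold change was -0.17 (interval -0.38 to 0.030), and at 90 days -0.13 in G93A (-0.31 to 0.046) and -0.13 in WT mice (-0.31 to 0.056). Map1lc3a was at -0.35 in WT mice at 155 days (interval -0.66 to -0.035), and at -0.22 in G93A mice at 90 days (interval -0.40 to -0.046). Without the untreated WT mouse with 186 CPM the first of these was -0.053, and without untreated G93A replicate 10, with 158 CPM, the second was -0.11. The log2 fold changes of Sqstm1 ran from -0.079 to -0.025 over the 4 comparisons.

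Of the 40 values (10 genes in 4 comparisons) 36 were below 0, and 6 genes were below 0 in all 4, namely Sqstm1, Map1lc3a, Gabarap, Gabarapl1, Atg5 and Atg7. The genes of a mouse are not independent of each other, and the median of all genes was also below 0 in each comparison, from -0.023 to -0.0037. The shares of all genes below 0 in a comparison, or in all 4, are not given here. These counts are therefore not read as particular to the 10 genes. Averaged over both genotypes, 0 of the 10 were called at 155 days, against 0%, where 975 genes of the table and 3 of the 10 passed the unadjusted limit. At 90 days 0 were called, against 0%, and 1393 genes and 2 of the 10 passed that limit. In that average Atg7 was at -0.20 (95% interval -0.35 to -0.061, edgeR adjusted p = 0.863) at 155 days and at -0.13 (-0.26 to -0.0021, edgeR adjusted p = 0.676) at 90 days.

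**Figure D5:**
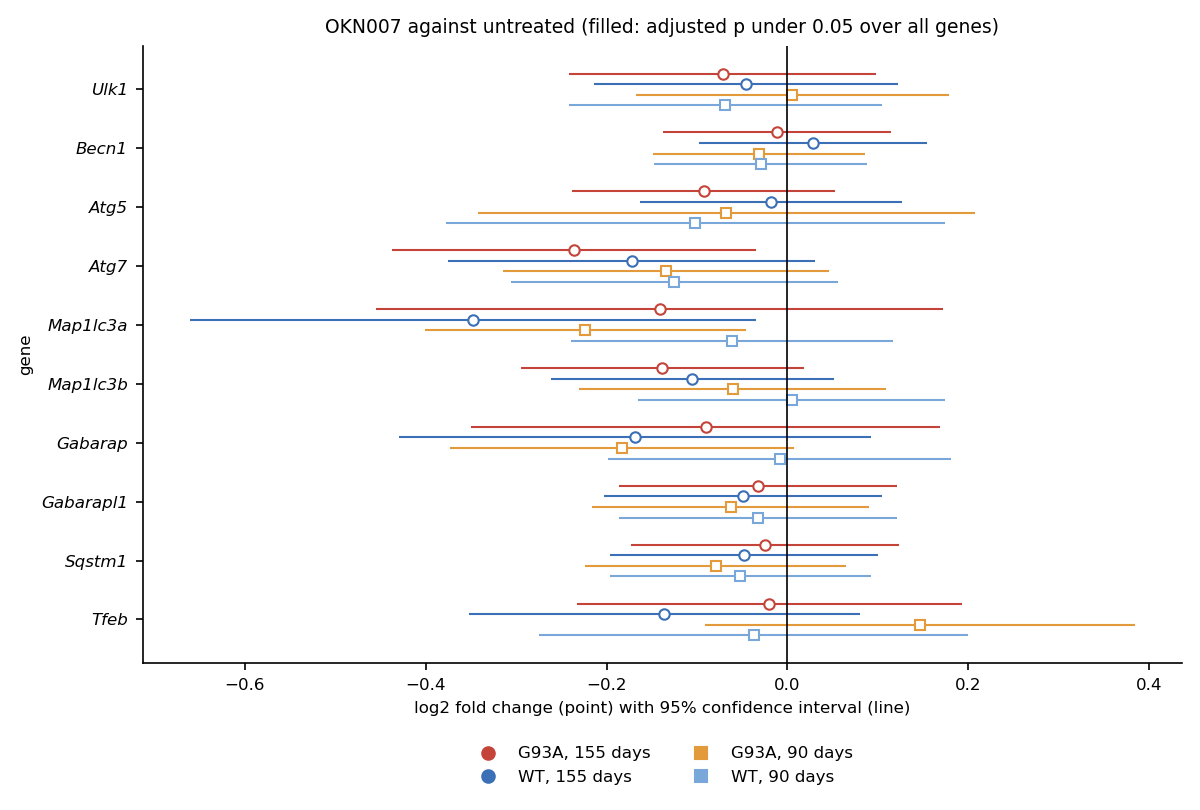
Log2 fold change of OKN007 against untreated mice (x axis, points, with 95% confidence intervals) for the 10 genes (y axis) in G93A (red, orange) and WT mice (dark and light blue) at 155 days (circles) and 90 days (squares). No point is filled, since none had an adjusted p under 0.05, and the points run from -0.35 to 0.15.

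The genotype change was not called different between OKN007 and untreated mice for any of the 10 genes, at 155 days (0 of 10, against 0%) or at 90 days (0 of 10, against 0%), with 437 and 531 genes of the table and 0 of the 10 at an unadjusted p under 0.05. DESeq2 called 0 of the 10, and 3 and 0 genes of the table. The interaction of Tfeb at 155 days was 0.12 (95% interval -0.19 to 0.42), that of Gabarap 0.078 (-0.29 to 0.45) and that of Sqstm1 0.024 (-0.19 to 0.23). For Tfeb and Gabarap these intervals hold an added change as large as the untreated genotype change (0.39 and 0.40) but not a loss of that size, and for Sqstm1 (0.16) they hold both.

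The genes whose pattern over the 8 group means of log2(CPM + 1), set to 0 in untreated WT mice at 90 days, was most like that of Sqstm1 were Arfgap2, Etfa, Serpinb9, Ykt6 and Phc2, with root mean square differences of 0.0289, 0.0302, 0.0308, 0.0312 and 0.0323 among 19738 genes. Of the other 9 genes Atg7 came nearest, at rank 600. Promoters (250 bases before to 50 after the start, RefSeq, GRCm38.p6) were at hand for 8 of the 10 genes, as 10 windows, and were searched on both strands. The E-box TCACGTGA, at the core of the motif that TFEB binds, occurred in 0 of the 10 and in 0.974% of 32851 promoters. The antioxidant response core TGACNNNGC occurred in 1 of the 10 and in 12.4% of all. That match, in Map1lc3b, begins 5 bases after the start, at chr8:121590432-121590460 on the plus strand with 10 bases on each side, and is shown because Map1lc3b was the one gene of the 8 searched to hold either motif (motif in capitals).
Map1lc3b: gcgagtcaccTGACTCGGCtgcggactga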

How the data were processed

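Spinal cord RNA of 32 mice, 4 in each of 8 groups by genotype, treatment and labelled age, was sequenced from TruSeq stranded mRNA libraries. The authors deposited raw counts of reads per gene, with no normalization, 1 column per mouse. The study's methods name Trimmomatic, STAR, HTSeq and GENCODE M10, whereas the submitters' processing notes name FastQC, STAR, featureCounts and edgeR with other builds. Since 1306 gene IDs are numbered above the highest in GENCODE M21, the counting annotation was a later one. Symbols (96.9% of IDs), positions and exon lengths were taken from GENCODE M21 (GRCm38).

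Counts were fitted per age (16 mice, 4 groups), or over all 32 mice for contrasts between ages, with filterByExpr, TMM and glmQLFTest of edgeR 4.0.16 (R 4.3.3), without covariates. Alternatives were DESeq2 1.42.0, the likelihood ratio test, RLE factors, no filter, other thresholds, other sets of mice, a replicate block and omission of each mouse. A Hox covariate was planned, and fits with a gene length or GC trend removed and the averaged contrasts were chosen after seeing the data. RPKM and marker sums used CPM from the 32-mouse fit. The procedure was run on simulated data with the same spread for all genes and larger changes than those of the 10 genes in the main fits. That run therefore does not show how well changes of the present size are found. Genes named beyond the 10 were, in each role list, up to 2 with the largest and 2 with the most negative change among those called in the untreated comparison at 155 days, with the other called genes of 4 lists added after their values were seen, and the 5 nearest to Sqstm1. The 10 genes and the lists were chosen with earlier results of these data known.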

Additional observations from a re-analysis of the deposited data

Results flagged for a closer look

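In 5 of the 80 groups of 4 (10 genes in 8 groups) 1 mouse stood apart from the other 3 by Dixon's test, where chance gives about 4. Among untreated G93A mice at 90 days, replicate 10 had 528 CPM of Sqstm1 (the next mouse 475), and replicate 12 had 578 CPM of Gabarapl1 (next 532) and 30.3 CPM of Atg5 (next 22.4). Replicate 13 had the lowest Gabarapl1 of the OKN007 G93A mice at 90 days, at 486 CPM (next 526). Another replicate 13 had the highest Tfeb of the OKN007 G93A mice at 155 days, at 31.2 CPM (next 27.8).

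The untreated genotype change differed between the ages, by a test of the difference in the 32-mouse fit, for Tfeb (0.52 on the log2 scale), Gabarapl1 (-0.33) and Map1lc3a (-0.50), while 21.2% of all genes were called. With the Hox score as a covariate (4108 of 19829 genes called), or with a replicate block, 0 of the 10 genes were called by edgeR. Map1lc3a fell to -0.22 without WT replicate 2 at 155 days and was called in 12 of 24 alternatives.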

How the results depend on the processing

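The counts of the 10 genes called for OKN007, for its interaction with genotype and for genotype at 90 days were 0 under each alternative run (19 or 26 for each comparison). Of 667 values of single genes under an alternative, 591 kept their direction and side of the threshold, 43 lost a call, 19 gained one and 14 turned in direction, and the cause was not tested unless given.

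A wider threshold (adjusted p under 0.10) called 20 pathway genes for the age difference and 4 of the 10 genes for age in WT mice. A required log2 change of 0.5 left 0, 1, 1 and 0 of the 10 genes (untreated genotype and OKN007 genotype at 155 days, age difference, WT age), the 1 being Tfeb, and 3, 4 and 5 pathway genes in the first 3, by its construction. Without a filter on low counts 8 pathway genes were called for the age difference, and Gabarapl1 was not (edgeR adjusted p = 0.0513), with more genes entering the adjustment. With the Hox score as a covariate, 1, 3 and 0 of the 10 genes and, in the genotype comparisons, 13 and 15 pathway genes were called. The table then held 5248 and 5277 called of 18675 genes for genotype and 4108 of 19829 for the age difference. Becn1 in untreated mice at 155 days turned to 0.022 with the Hox score, to 0.019 with the length trend removed and to 0.0032 with the GC trend removed, where Atg5 turned to 0.0071. For WT age, removal of the GC trend gave 4 of the 10 genes. DESeq2 called 4 and 6 of the 10 genes for genotype at 155 days, Map1lc3b the added one, and 7511 and 7949 of 40747 genes of the table. The shares of the table under the other settings of this paragraph are not given here unless stated. Map1lc3a was called in untreated mice at 155 days without the filter, with the length trend removed and in the fit of all 32 mice, and Tfeb for WT age under DESeq2, with the GC trend removed and without WT replicate 2 of either age.

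Replicate numbers were shared across ages. Deviations of same-numbered mice correlated between -0.215 and 0.134, with 2 of 16 above 0.1 and 2 libraries closest to their own number. Mice of different ages are different animals, so low values here cannot show whether the numbers carry some other link between mice. With a replicate block, 0 of the 10 and 7 pathway genes were called for the age difference.

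Leaving out 1 mouse gave 1 to 3 of the 10 genes and 8 to 22 pathway genes for the age difference, and 1 to 4 of the 10 for WT age. It moved Becn1 from -0.038 to 0.031 and Atg5 from -0.038 to 0.017 in untreated mice at 155 days, and Atg7 from -0.014 to 0.15 in the OKN007 genotype comparison. Each of the 10 genes was at 11.7 CPM or more in every mouse, far above the 0.152 CPM that 3 counts give at most. Within groups, log2 deviations of the 10 genes correlated with those of the library total from -0.55 (Gabarap) to 0.55 (Ulk1) over the 32 mice. Map1lc3a was at -0.48, Tfeb at -0.22 and Gabarapl1 at 0.37. With the mitochondrial share of counts the correlations ran from -0.62 (Sqstm1) to 0.23 (Tfeb). At 155 days that share was 3.77% to 4.38% in untreated G93A and 4.16% to 5.33% in untreated WT mice. In OKN007 mice it was 3.86% to 4.22% in G93A and 4.04% to 5.09% in WT. The part of the library total and of the mitochondrial share in the spread between mice, or in the genotype changes, was not tested.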

Other observations

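Across the wider pathway, untreated WT cord at 155 days against 90 days had 27 of 79 genes called, 25 of them higher, against 24.9% of all genes. Of the 4933 genes of the whole table called in this comparison, 3028 were higher. Age and cohort cannot be told apart here either, and the part of the shifts in marker genes, mitochondrial share and Hox score was not tested. Among the pathway genes the largest were Vps41, a tether for fusion with the lysosome (log2 fold change 0.81), Ncoa4, the receptor for ferritin (0.79), Atg9a (0.76) and Prkaa2 (0.67). The 2 lower pathway genes were Wipi1 (-0.41) and Atg16l2 (-0.40). These genes were chosen after their values were seen. In untreated G93A against WT cord at 155 days, which uses the same 4 WT mice, Vps41 was at -0.33, Atg9a at -0.45, Prkaa2 at -0.42 and Wipi1 at 0.28. Because the WT mice are shared, these values are not independent of each other.

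The untreated genotype change differed between the ages for 13 of 79 pathway genes, 6 upward and 7 downward, a smaller share than the 21.2% of all genes. The count was 8 to 22 on leaving out 1 mouse and 7 with a replicate block. Apart from the genes described above, Vamp8 (1.03), Foxo1 (0.76), Atg4a (0.67), Tfe3 (0.53) and Calcoco1 (0.37) moved upward. Deptor (-0.45), Tmem41b (-0.38), Atg4d (-0.36), Atg2b (-0.32) and Pik3c3 (-0.28) moved downward.

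Single mice were extreme for several of the genes at once. Untreated WT replicate 2 at 155 days had the highest value of its group for Sqstm1 (536 CPM), Map1lc3a (186), Map1lc3b (277), Gabarap (97.6), Gabarapl1 (613), Tfeb (27.5) and Atg7 (18.2). It had the lowest Becn1 (119 CPM) and Ulk1 (52.2) and the lowest library total of its group (23259870). Untreated G93A replicate 10 at 90 days had the highest Sqstm1 (528 CPM), Map1lc3a (158) and Gabarap (116) and the lowest Ulk1 (30.1), Tfeb (22.1) and Becn1 (121) of its group, and the lowest library total of the 32 (19701722). It also held 213 CPM of Schwann cell markers, against 3.73 to 4.77 CPM in the other 3 mice of its group.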
